A study of Mus musculus with 36 samples.

Results

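The nephric duct genes and the genes of GDNF-RET signalling were followed in mouse embryos that lack the miR-17~92 cluster. The set holds 9 genes: Pax2, Pax8, Lhx1, Gata3, Wnt9b, Ret, Gfra1, Gdnf and Calb1. They were taken by symbol from the gene count tables of 2 stages, each with 21699 genes. All 9 members were found at both stages, each with 1 row, and all 9 passed the filter on low counts at both, beside 14217 tested genes at the earlier stage (E11.5) and 14348 at the later (E12.5). RNA-seq was done on control and KO embryos of either sex (4 genotypes), with 3 libraries per genotype and stage, each from a pool of 2 pairs of gonads.

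KO embryos were homozygous for a Cre/LoxP deletion of the cluster and carried the ubiquitous Tg(CAG-cre)1Nagy transgene, and the floxed allele came from a mixed C57BL/6 and 129S4/SvJae background. The deletion is therefore not limited to the gonad, the duct or any other cell type. The labels call the controls WT, and whether they carried the transgene or a floxed allele is not given in the sources used here. At E11.5 (E for embryonic day) whole complexes of gonad and mesonephros were taken, so the nephric (Wolffian) duct and the mesonephric tubules were in the sample. At E12.5 only isolated gonads were taken, and another library kit was used, so levels are not compared across the stages. Total counts per library ranged from 17150620 to 34077443 at E11.5 and from 11877379 to 44155275 at E12.5. The 6 microRNA genes of the cluster together held 12 to 28 counts in the 3 libraries of each control genotype at either stage, and 0 in KO genotypes except for 4 counts in XY KO at E11.5. Counts over the whole host gene Mir17hg, most of which lies outside the microRNAs, were higher in KO libraries at both stages and do not check the deletion.

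As background, PAX2 and PAX8 are paired-box transcription factors that specify the nephric lineage. LHX1, a LIM homeodomain factor, and GATA3, a zinc finger factor, act below them in the extension and guidance of the duct. The duct secretes WNT9B, which induces the surrounding mesenchyme to form tubules. RET is a receptor tyrosine kinase of the duct, GFRA1 its membrane-anchored co-receptor, and GDNF the ligand, made by the mesenchyme around the place where the ureteric bud grows out. CALB1 is a cytosolic calcium-binding protein used as a marker of the duct and its derivatives. In the gonad, GDNF is best known as a product of Sertoli cells that acts on germ cells bearing RET and GFRA1.

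The microRNAs that KO embryos lack are shown here with the seed (bases 2 to 8) in capitals, since these bases decide which messages they can pair with. Their sequences are those of RefSeq on GRCm38.p6, where the 6 genes lie on the forward strand of chromosome 14. They fall into 4 groups by seed.

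mmu-miR-17-5p: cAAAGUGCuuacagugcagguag
mmu-miR-20a-5p: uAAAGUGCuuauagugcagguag
mmu-miR-18a-5p: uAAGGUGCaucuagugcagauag
mmu-miR-19a-3p: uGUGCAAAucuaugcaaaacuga
mmu-miR-19b-3p: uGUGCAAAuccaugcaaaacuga
mmu-miR-92a-3p: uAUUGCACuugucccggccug

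The complements of the seeds, GCACTTT for miR-17/20a, GCACCTT for miR-18a, TTTGCAC for miR-19a/b and GTGCAAT for miR-92a, were searched on the sense strand of all annotated 3′ untranslated regions (GENCODE vM21). Of the 9 members, 4 held at least 1 match: Wnt9b, Ret, Gdnf and Calb1. Over 21037 genes with such a region, 30% held at least 1. Pax2, Pax8, Lhx1, Gata3 and Gfra1 held none of these letters in theirs. The 5 matches are printed below because they are places where the full seed of a deleted microRNA could pair with a member. Shorter matches to the seed were not searched. The match is in capitals and written 5′ to 3′ along the message.

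Wnt9b, miR-17/20a, minus strand, chr11:103728301-103728307: ggatttgtaaaGCACTTTccatcttcagaa
Wnt9b, miR-17/20a, minus strand, chr11:103730262-103730268: gagcaagggaaGCACTTTAggcttgggtgg
Ret, miR-19a/b, minus strand, chr6:118154728-118154734: ctttcacatccTTTGCACcctacccccatc
Gdnf, miR-92a, plus strand, chr15:7836482-7836488: gtcacctgaaaGTGCAATgaaggcccctga
Calb1, miR-17/20a, plus strand, chr4:15906081-15906087: gttggatttaaGCACTTTttttcaattgtt

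Coordinates are of the 7 paired bases on GRCm38. Only the second Wnt9b match goes on with an A, the form called an 8mer, which 3.67% of the genes held for miR-17/20a. The 7-base match was held by 12.4% of genes for miR-17/20a, 8.28% for miR-18a, 12% for miR-19a/b and 6.93% for miR-92a. A match is a stretch of letters and not a measured site.

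Per kilobase of exon, Calb1, Wnt9b, Gata3 and Pax2 were the most abundant members in the E11.5 complexes of XX controls, and Gdnf the least. Mean RPKM in XX controls was 11.53 ± 2.51 (SD, 3 libraries) for Calb1, 11.3 ± 0.522 for Wnt9b, 9.66 ± 1.44 for Gata3, 8.99 ± 1.25 for Pax2, 5.16 ± 0.407 for Pax8, 3.93 ± 0.54 for Gfra1, 3.3 ± 0.925 for Ret, 2.52 ± 0.307 for Lhx1 and 1.56 ± 0.717 for Gdnf. Calb1 and Wnt9b, Gata3 and Pax2, Gfra1 and Ret, and Ret and Lhx1 differed by less than the larger SD of the pair. In the isolated gonads of E12.5 the order depended on sex. Gdnf led in XY controls (RPKM 14 ± 1.5) and Lhx1 followed (5.03 ± 0.188), while Calb1 led in XX controls (6.96 ± 1.63), followed by Pax8 (2.55 ± 0.214) and Ret (1.7 ± 0.266).

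The E11.5 complexes held nephric epithelium in all 12 libraries. Cdh16, the cadherin of duct and tubule cells, was between 62.1 and 118 CPM (counts scaled to library size with TMM factors, as CPM). XY control replicate 2 stood apart from the other XY controls, with Cdh16 at 107 CPM against 63.5 and 65.3 CPM and with Hnf4a, a tubule factor, at 18.8 CPM against 7.44 and 6.4 CPM. It was also the highest XY control for Pax2, Pax8, Lhx1, Gata3, Wnt9b, Gfra1 and Calb1. In bulk tissue, fewer cells of a type and less RNA per cell cannot be told apart.

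**Figure D1:**
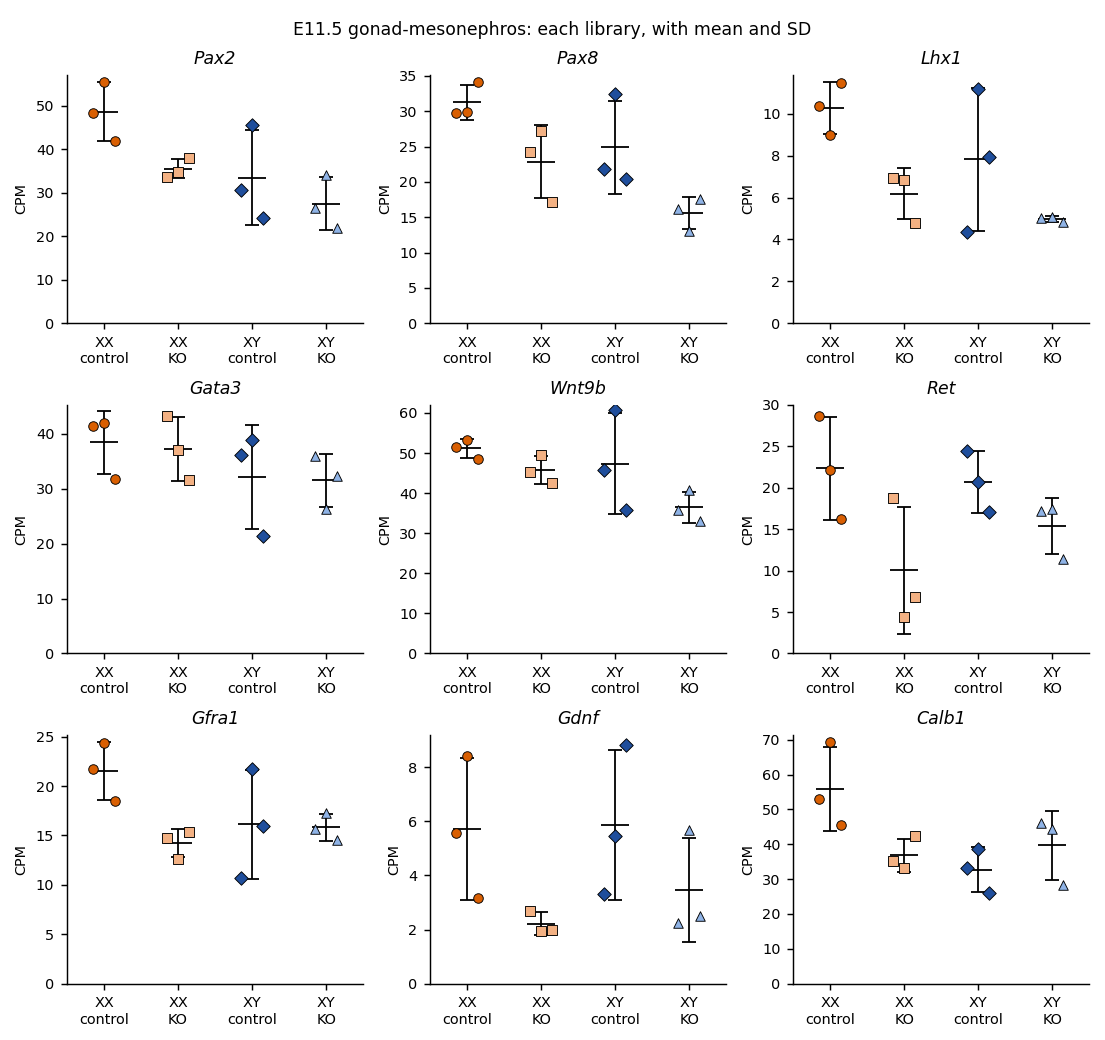
CPM of the 9 genes in the 12 gonad-mesonephros libraries of E11.5, 1 panel per gene, with points for libraries and bars for the mean and SD of each genotype. Ret spans 4.42 to 18.8 CPM within XX KO, and all 3 XX KO points of Pax2, Pax8, Lhx1, Gfra1, Gdnf and Calb1 lie below all 3 XX control points.

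In XY embryos at E11.5, Pax8 was the only member called (FDR under 0.05) with loss of the cluster. It was at 21.8, 32.5 and 20.4 CPM in XY controls and at 16.2, 13.1 and 17.5 CPM in XY KO, so all KO libraries lay below all controls. This is a 1.59-fold lower level (log2 fold change -0.67 ± 0.19 SE, edgeR FDR = 0.0332, the Benjamini-Hochberg adjusted p of the quasi-likelihood test). With 1 of 9 members called, the share was close to the 12.7% of all tested genes called in this comparison. The call was lost when XY control replicate 2 was left out (log2 -0.43, edgeR FDR = 0.0861), when XY KO replicate 1, 2 or 3 was left out (edgeR FDR = 0.0844, 0.124 and 0.0527), and when only the libraries compared were fitted (edgeR FDR = 0.0698). Pax8 shares 367 exon bases with Gm13415 on the other strand, and the strand setting of the counting is not given in the sources used here.

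The other transcription factors did not pass in XY embryos at E11.5. Pax2 was at 30.7, 45.6 and 24.2 CPM in XY controls and at 26.5, 34 and 21.9 CPM in XY KO, with overlap (log2 -0.29 ± 0.20). Lhx1 was at 4.36, 11.2 and 7.92 CPM against 5.04, 5.07 and 4.82 CPM, and here the 3 KO libraries were nearly equal inside a wide range of controls (log2 -0.66 ± 0.26, edgeR FDR = 0.112). Without XY control replicate 1, the lowest control, Lhx1 passed (log2 -0.94, edgeR FDR = 0.016). Gata3 was at 36.2, 38.9 and 21.3 CPM against 35.9, 26.4 and 32.2 CPM, and its log2 difference of -0.03 ± 0.20 was far smaller than its spread.

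Of the signalling genes and Calb1 in XY embryos at E11.5, none passed. Wnt9b was at 45.7, 60.6 and 35.8 CPM in XY controls and at 35.7, 40.7 and 33 CPM in XY KO (log2 -0.38 ± 0.15, edgeR FDR = 0.105), and it passed without XY control replicate 3 (log2 -0.55, edgeR FDR = 0.0182). Ret was at 24.4, 20.6 and 17 CPM against 17.2, 17.5 and 11.4 CPM (log2 -0.43 ± 0.43). Gdnf, low in this tissue, was at 3.31, 5.47 and 8.82 CPM against 2.22, 5.69 and 2.51 CPM (log2 -0.77 ± 0.43). The co-receptor Gfra1 and the marker Calb1 overlapped as well. Gfra1 was at 10.7, 21.7 and 16 CPM against 15.6, 17.2 and 14.6 CPM (log2 -0.03 ± 0.20), and Calb1 at 33.3, 38.8 and 26 CPM against 46.2, 44.3 and 28.4 CPM (log2 0.28 ± 0.20).

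In XX embryos at E11.5 no member passed the threshold (edgeR, 0 of 9, where 3.27% of all tested genes were called), yet 7 of 9 had an unadjusted p under 0.05, against 15.7% of all tested genes. In 6 of 9, every XX KO library was below every XX control library, against 11.9% of all tested genes. An exact permutation test of 3 libraries against 3 cannot give a two-sided p below 0.1. DESeq2's Wald test called 2 members, Gdnf and Calb1 (5.47% of all tested genes), and a fit of the XX libraries alone called 3, Pax2, Gfra1 and Gdnf (4.23% of all tested genes).

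The transcription factors Pax2, Pax8 and Lhx1 were among these 6. Pax2 was at 48.4, 55.5 and 42 CPM in XX controls and at 33.7, 34.8 and 38 CPM in XX KO (log2 -0.46 ± 0.20, edgeR FDR = 0.285). Pax8 was at 29.8, 29.9 and 34.1 CPM against 24.2, 27.2 and 17.1 CPM (log2 -0.45 ± 0.19). Lhx1 was at 10.3, 8.97 and 11.47 CPM against 6.91, 6.84 and 4.8 CPM (log2 -0.72 ± 0.26, edgeR FDR = 0.161), and it passed without XY control replicate 1 (edgeR FDR = 0.0475). Gata3 stood outside the group, at 41.4, 42 and 31.8 CPM against 43.2, 37.1 and 31.6 CPM (log2 -0.04 ± 0.20), and its sign turned in 3 of 18 alternative fits. Wnt9b also overlapped, at 51.5, 53.3 and 48.6 CPM against 45.4, 49.5 and 42.5 CPM (log2 -0.16 ± 0.15).

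The ligand gene Gdnf and the receptor gene Ret had the largest fitted differences of the 9 in XX embryos. Gdnf was at 5.58, 8.42 and 3.16 CPM in XX controls and at 2.69, 1.96 and 1.98 CPM in XX KO (log2 -1.38 ± 0.44, edgeR FDR = 0.121). Gfra1 was at 21.7, 24.4 and 18.5 CPM against 14.8, 12.6 and 15.3 CPM (log2 -0.60 ± 0.20, edgeR FDR = 0.123), and it passed without XY control replicate 1 or 2 (edgeR FDR = 0.0376 and 0.0346). Ret was at 28.7, 22.1 and 16.2 CPM against 18.8, 4.42 and 6.87 CPM, so XX KO replicate 1 lay among the controls and the other two far below (log2 -1.14 ± 0.43, edgeR FDR = 0.22). Without XX KO replicate 1, Ret passed (log2 -1.99, edgeR FDR = 0.00306). Calb1 was at 53, 69.2 and 45.4 CPM against 35.2, 33.2 and 42.2 CPM (log2 -0.60 ± 0.20, edgeR FDR = 0.134).

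Ret is also made by sympathetic neuroblasts, and in XX KO, though not in XY KO, the libraries with little Ret held little Dbh, 1 gene of these cells. Dbh, the enzyme that makes noradrenaline, was at 24.2, 0.85 and 1.75 CPM in XX KO replicates 1, 2 and 3, where Ret was at 18.8, 4.42 and 6.87 CPM. XY KO replicate 3 went the other way, with the highest Dbh of the 12 libraries, 28.9 CPM, and the lowest Ret of its genotype, 11.4 CPM. The summed level of the 12 genes of a sympathoadrenal and neural list, Dbh among them, ranked as Dbh did within XX KO. It was also highest in XY KO replicate 3. In replicates 1, 2 and 3 the summed level was 141, 92.2 and 78.6 CPM in XX controls and 186, 77.5 and 105 CPM in XX KO. XX KO replicate 3 thus lay above XX control replicates 2 and 3. The sum was 128 to 158 CPM in XY controls and 119 to 222 CPM in XY KO, and no gene of the list had a mean of 0 in a genotype. The 3 genes whose log2 CPM was most like that of Ret over the 12 libraries were Sla (Pearson r = 0.96), Gap43, a growth cone protein of neurons (r = 0.92), and Rtbdn (r = 0.91). The part of these cells in the Ret values was not tested.

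Gdnf is the ligand of the metanephric mesenchyme, and Six2, 1 gene of this tissue, was uneven among the E11.5 samples. Six2, which marks the kidney progenitors, was at 11.2, 25.9 and 9.47 CPM in XX controls, at 1.05, 0.383 and 10.6 CPM in XX KO, at 2.16, 1.12 and 1.04 CPM in XY controls and at 2.41, 12.2 and 1.79 CPM in XY KO. The library with the most Gdnf in XX controls and that in XY KO were also those with the most Six2 of their genotype, which was not so in XX KO. XY control replicate 3, with the highest Gdnf of all at 8.82 CPM, had Six2 at 1.04 CPM but the highest summed level of 9 Sertoli cell genes, 312 CPM against 146 and 247 CPM in the other XY controls. Over the 9 metanephric genes other than Gdnf, the summed level was 322 to 368 CPM in XX controls, 323 to 420 CPM in XX KO, 190 to 343 CPM in XY controls and 288 to 388 CPM in XY KO. In XX KO replicates 1 and 2, which had little Six2, the sum was 323 and 379 CPM, most of it from Itga8. Over XX KO replicates 1, 2 and 3, Itga8 was at 245, 305 and 283 CPM and did not rank as Six2 did. Eya1 (5.89, 4.21 and 14.6 CPM) and Sall1 (23.3, 21.5 and 32.6 CPM) did, and the remaining genes of the list are not given here by library. Of the 9 genes, Crym was called lower in XX KO (log2 -1.90, edgeR FDR = 0.0196) and none was called in XY KO. The part of either tissue in the Gdnf values was not tested.

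**Figure D2:**
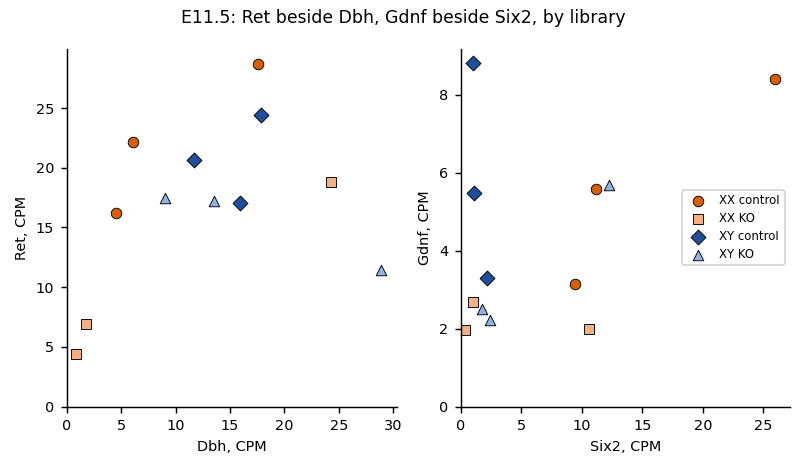
CPM by library at E11.5, with Ret against Dbh of sympathetic neuroblasts on the left and Gdnf against Six2 of the metanephric mesenchyme on the right, coloured by genotype. XX KO replicates 2 and 3, with Dbh at 0.85 and 1.75 CPM, have the lowest Ret, XY KO replicate 3 has the highest Dbh (28.9 CPM) with Ret at 11.4 CPM, and XY control replicate 3 has Gdnf at 8.82 CPM with Six2 at 1.04 CPM.

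At E11.5 edgeR called no member between the sexes or for the difference between the KO effects of the sexes. Between XX and XY controls edgeR called 0 of 9 (0.886% of all tested genes were called), with 2 of 9, Pax2 and Calb1, at an unadjusted p under 0.05, against 17.9% of all tested genes. Calb1 was higher in all XX than in all XY controls (log2 0.78 ± 0.20, edgeR FDR = 0.0991), and DESeq2 called it. Without XY control replicate 2, where 17.6% of all tested genes were called, 5 members passed and were higher in XX controls: Pax2 (log2 0.83), Pax8 (0.57), Lhx1 (0.74), Gfra1 (0.69) and Calb1 (0.92). Calb1 also passed without XY KO replicate 3 (edgeR FDR = 0.0404). Between XX KO and XY KO edgeR and DESeq2 each called 0 of 9 (edgeR called 0.0844% of all tested genes). Here 2 of 9, Pax8 and Wnt9b, had an unadjusted p under 0.05, against 16.1%. Wnt9b was higher in all XX KO than in all XY KO libraries (log2 0.33 ± 0.15, edgeR FDR = 0.294). For the interaction, that is the KO effect in XY minus that in XX embryos, both tools called 0 of 9 (edgeR called 0.0352% of all tested genes), with Calb1 alone at an unadjusted p under 0.05 (log2 0.88 ± 0.28), against 12.8%.

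Set against other genes of the duct in the same library, Pax8 was still lower in KO libraries of both sexes at E11.5. The log2 ratio of Pax8 to the summed CPM of 10 duct genes differed by -0.62 on average between XY KO and XY controls and by -0.34 between XX KO and XX controls, with no overlap in either (exact permutation p = 0.1 in each, two-sided, the smallest possible). For Lhx1 the ratio differed by -0.58 in XX embryos without overlap (exact permutation p = 0.1) and by -0.52 in XY embryos with overlap (exact permutation p = 0.4). The ratio of Gdnf differed by -1.05 in XX embryos without overlap (exact permutation p = 0.1) and by -0.71 in XY embryos with overlap (exact permutation p = 0.3). The ratios of Gata3 were nearly equal, with differences of 0.02 in XY and 0.09 in XX embryos. Emx2 alone gave 146 to 242 CPM of sums of 383 to 592 CPM. With Emx2, Krt19 and Mecom left out, the ratio of Pax8 differed by -0.47 in XY and -0.35 in XX embryos, again without overlap (exact permutation p = 0.1 in each). That of Gdnf in XX embryos then differed by -1.07 with overlap (exact permutation p = 0.2).

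Pax2 varied with Wnt9b and with Calb1 among libraries of a genotype at E11.5. Deviations from the genotype mean had a Pearson r of 0.89 for Pax2 and Wnt9b (Spearman rho 0.80, permutation p = 0.0154 and 0.0201) and of 0.83 for Pax2 and Calb1 (rho 0.81, permutation p = 0.01 and 0.0185). Over the 36 pairs of members none passed adjustment (lowest adjusted permutation p = 0.278). Without the 2 libraries farthest from the median of Pax2, r was 0.72 and 0.82. With the other members, r of Pax2 ran from 0.14 (Pax8) to 0.61 (Gfra1). All points share their libraries, and the part of the amount of duct in these correlations was not tested.

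By log2 CPM over the 12 libraries of E11.5, the tested gene most like each member was as follows, as a description. It was Spsb4 for Pax2 (r = 0.95), Eps8l2 for Pax8 (r = 0.97), Plet1 for Lhx1 (r = 0.96), Hoxb8 for Gata3 (r = 0.88) and Sgpp2 for Wnt9b (r = 0.94). For the others it was Map2k6 for Gfra1 (r = 0.93), 5730409E04Rik for Gdnf (r = 0.93) and Ywhaz for Calb1 (r = 0.91). Next in likeness were Zfp553 and Dusp9 for Pax2, Klhl14 and Dpf2 for Pax8, Met and Nipal3 for Lhx1, H2-D1 and Ankrd42 for Gata3, Vps18 and Ppl for Wnt9b, Pitpna and 0610040J01Rik for Gfra1, Zdhhc14 and Bik for Gdnf, and Phf23 and Ube2r2 for Calb1. Met, the hepatocyte growth factor receptor, is itself a gene of the branching duct.

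Etv4 was called lower in both sexes at E11.5 among the outputs of RET signalling. Of 13 outputs and feedback genes of the pathway in the duct, 4 were called lower and none higher in XY KO (median log2 -0.28, against -0.03 over all tested genes, of which 12.7% were called), and 1 was called lower and none higher in XX KO (median log2 -0.21, against 0.00, with 3.27% called). Etv4, an ETS factor switched on by RET and by FGF receptors, was at 18.2, 23 and 30.4 CPM in XY controls and at 8.74, 12.2 and 10 CPM in XY KO (log2 -1.21, edgeR FDR = 0.00129). In XX embryos Etv4 was at 15.4, 22.8 and 21 CPM in controls and at 10.4, 12 and 11.7 CPM in KO (log2 -0.80, edgeR FDR = 0.033). Its relative Etv5 was called lower in XY KO (log2 -0.82, edgeR FDR = 0.00843), as were the feedback inhibitors Spry1 (log2 -0.38, edgeR FDR = 0.0325) and Dusp6 (log2 -0.40, edgeR FDR = 0.024). The gonad and the mesenchyme also express these genes, and their source within the complex was not tested.

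Among the other ligands and co-receptors of the family at E11.5, 6 of 9 genes were tested. Nrtn, which encodes the RET ligand neurturin, was called lower in XY KO, at 3.52, 4.56 and 3.33 CPM against 8.18, 5.95 and 5.69 CPM in XY controls (log2 -0.80, edgeR FDR = 0.0306). None of the 6 was called in XX KO. Of 22 regulators of Gdnf and of budding, 1 was called in each sex, below the 12.7% of all tested genes in XY KO and near the 3.27% in XX KO. It was the SLIT receptor gene Robo2 in XY KO (log2 0.58, edgeR FDR = 0.00272) and the ligand gene Slit3 in XX KO (log2 0.55, edgeR FDR = 0.0273), both higher. Of 10 duct genes outside the members, the keratin gene Krt19 alone was called, higher in XY KO (log2 0.59) and XX KO (log2 0.65). Of the mesonephric tubule genes outside the members, 10 of 11 were tested. Spp1 was called lower in both sexes (log2 -3.08 in XY and -1.56 in XX KO) and the phosphate carrier gene Slc34a1 in XY KO (log2 -1.58, edgeR FDR = 0.0123).

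**Figure D3:**
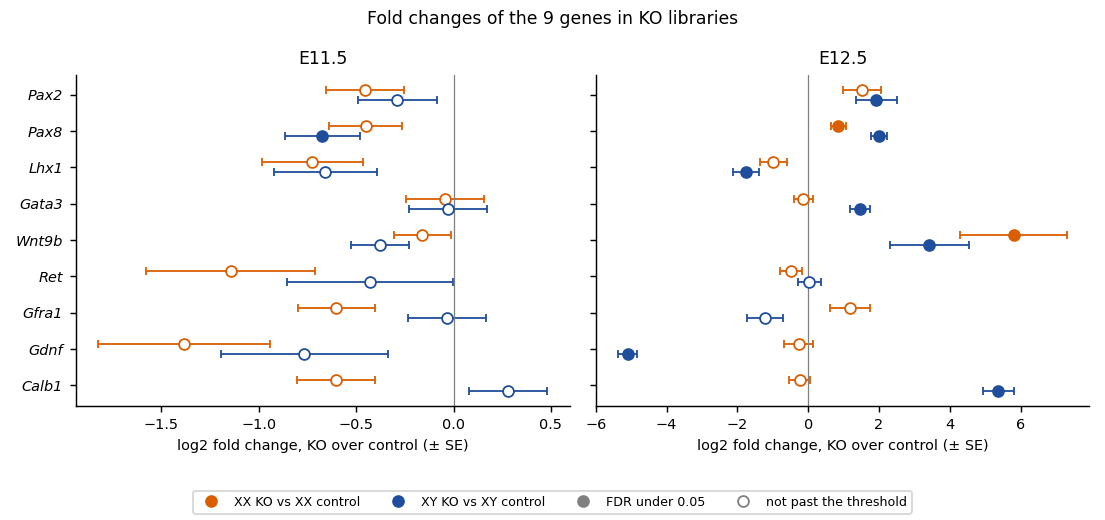
Log2 fold change of KO over control (± SE, quasi-likelihood fit) of the 9 genes in XX (orange) and XY (blue) embryos at each stage, with filled symbols for an FDR under 0.05. At E11.5 only Pax8 in XY KO is filled, and at E12.5 Gdnf and Calb1 lie at -5.10 and 5.37 in XY embryos and at -0.27 and -0.24 in XX embryos.

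In isolated gonads at E12.5, the members were divided by sex in controls. Between XX and XY controls 7 of 9 were called, where 23.8% of all tested genes were called. Gdnf, Lhx1 and Gfra1 were higher in XY controls, and Calb1, Pax8, Gata3 and Ret were higher in XX controls. With loss of the cluster, XY gonads had 7 of 9 members called against XY controls (20.6% of all tested genes), 5 higher and 2 lower. XX gonads had 2 of 9 called against XX controls (5.26% of all tested genes), both higher. The comparisons of XY controls with XX controls and with XY KO share the XY control libraries, so each is given by its own values.

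**Figure D4:**
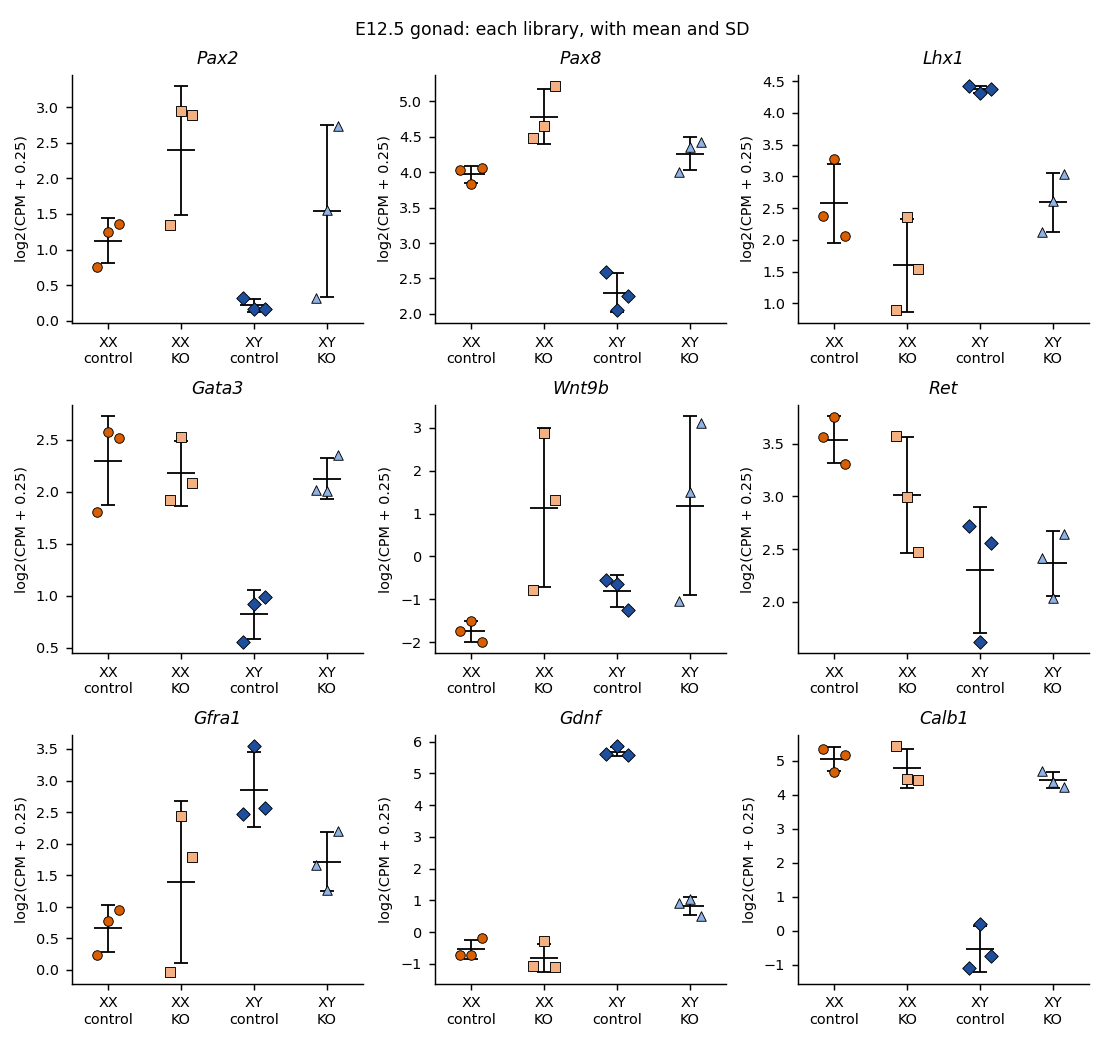
Log2(CPM + 0.25) of the 9 genes in the 12 gonad libraries of E12.5, 1 panel per gene, with points for libraries and bars for the mean and SD of each genotype. XY controls stand apart from the other 3 genotypes for Gdnf, Lhx1, Calb1, Pax8 and Gata3, whereas the KO libraries of Wnt9b and Pax2 are spread over a wide range.

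Gdnf had the largest difference between control sexes. It was at 49, 57.7 and 47.5 CPM in XY controls, at 1.64, 1.82 and 1.17 CPM in XY KO, at 0.361, 0.353 and 0.625 CPM in XX controls and at 0.23, 0.566 and 0.218 CPM in XX KO. XY control libraries thus lay far above all others, and XY KO libraries above all XX libraries. The level was 34.3-fold lower in XY KO than in XY controls (log2 -5.10 ± 0.27, edgeR FDR = 1.35e-08) and 116-fold lower in XX than in XY controls (log2 -6.86 ± 0.32, edgeR FDR = 1.76e-09). Gdnf was also the only member called between XX KO and XY KO (1 of 9, against 0.153% of all tested genes), where it was 4.09-fold higher in XY KO (log2 -2.03 ± 0.33 for XX minus XY, edgeR FDR = 0.021). That last call was lost without XX KO replicate 1 (edgeR FDR = 0.14) or 3 (0.0862), without XY control replicate 1 (0.0598), without XY KO replicate 1 (0.0794) or 2 (0.126), and with the KO libraries alone (0.3). In XX embryos KO and control overlapped (log2 -0.27 ± 0.42).

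Other genes of the Sertoli cell were high in the same libraries as Gdnf. The summed level of 9 Sertoli cell genes, Sox9 and Amh among them, was 1731 to 2327 CPM in XY controls, 120 to 135 CPM in XY KO, 74.8 to 83.2 CPM in XX controls and 77 to 89.3 CPM in XX KO. All 9 were called lower in XY KO, where 20.6% of all tested genes were called. The part of cell number in the Gdnf values was not tested. Of 18 tested genes that regulate Gdnf and budding in the kidney, 6 were called higher and 2 lower in XY KO (median log2 0.06). The lower ones were Eya1 and Robo2. Eya1 was at 12.9, 12.6 and 14 CPM in XY controls and at 2.34, 2.43 and 2.43 CPM in XY KO (log2 -2.45, edgeR FDR = 2.71e-06). Robo2 was at 265, 306 and 303 CPM against 118, 90.8 and 86.5 CPM (log2 -1.57, edgeR FDR = 1.39e-05). Six2 did not pass the filter in the gonads, at no more than 1.21 CPM.

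Lhx1, like Gdnf, was highest in XY controls. It was at 21.2, 19.6 and 20.6 CPM in XY controls, at 4.09, 5.87 and 8 CPM in XY KO, at 4.95, 9.44 and 3.94 CPM in XX controls and at 1.61, 4.89 and 2.65 CPM in XX KO. XY controls were above all other libraries, and the other 3 genotypes overlapped. The level was 3.38-fold lower in XY KO than in XY controls (log2 -1.76 ± 0.37, edgeR FDR = 0.00358) and 3.33-fold lower in XX than in XY controls (log2 -1.74 ± 0.38, edgeR FDR = 0.00323). Against XX controls, XX KO did not pass (log2 -0.99 ± 0.38, edgeR FDR = 0.141), but it did without XX KO replicate 2 (log2 -1.53, edgeR FDR = 0.025). Without that library the KO genotypes also differed, with less Lhx1 in XX (log2 -1.51, edgeR FDR = 0.0269). Leaving it out raised the share of all tested genes called as well, from 5.26% to 11.7% between XX KO and XX controls. Between the KO genotypes that share went from 0.153% to 12.8%.

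Gfra1 and Ret, the receptor pair, differed between the control sexes in opposite directions. Gfra1 was at 5.27, 11.4 and 5.65 CPM in XY controls and at 0.928, 1.46 and 1.69 CPM in XX controls, without overlap (log2 -2.46 ± 0.56 for XX minus XY, edgeR FDR = 0.00475). Ret was at 6.36, 2.82 and 5.65 CPM in XY controls and at 11.55, 13.2 and 9.63 CPM in XX controls (log2 1.22 ± 0.32, edgeR FDR = 0.0119), and this call was lost without XY control replicate 2 (log2 0.93, edgeR FDR = 0.0545). In KO gonads Gfra1 was at 2.92, 2.16 and 4.37 CPM in XY and at 0.723, 5.19 and 3.2 CPM in XX, so all XY KO libraries were below all XY controls while XX KO libraries spread to both sides of XX controls. Neither difference passed (log2 -1.22 ± 0.52, edgeR FDR = 0.119, and 1.18 ± 0.56, edgeR FDR = 0.219). Without XX KO replicate 1 both passed (edgeR FDR = 0.0279 and 0.0391), and with the XY libraries alone the XY difference passed (edgeR FDR = 0.0333). Over the alternative fits the XX difference ranged from -0.89 to 1.64. Gfra1 shares 416 exon bases with Gm16277 on the other strand.

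Ret was not changed beyond its spread by loss of the cluster at E12.5. In KO gonads it was at 5.09, 3.85 and 6.01 CPM in XY (log2 0.04 ± 0.33) and at 11.7, 7.72 and 5.3 CPM in XX (log2 -0.48 ± 0.31, edgeR FDR = 0.362). Germ cells, which carry RET and GFRA1 in the fetal gonad, left fewer messages in KO than in control libraries. The summed level of 8 germ cell genes was 876 to 1571 CPM in XX controls, 343 to 804 CPM in XX KO, 842 to 1144 CPM in XY controls and 657 to 805 CPM in XY KO, without overlap within a sex. In XX KO 3 of the 8 were called lower, where 5.26% of all tested genes were called. In XY KO 2 of the 8 were called lower, a share near the 20.6% of all tested genes. Their part in the values of Ret and Gfra1 was not tested. Dbh of sympathetic neuroblasts was at no more than 1.65 CPM in these libraries, and the sympathoadrenal and neural list summed to 18.7 to 56 CPM.

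Calb1 was lowest in XY controls. It was at 0.218, 0.911 and 0.348 CPM in XY controls, at 25.7, 20.5 and 18.6 CPM in XY KO, at 40.7, 25.1 and 35.3 CPM in XX controls and at 42.7, 21.7 and 21.4 CPM in XX KO. XY controls were thus far below every other library. The level was 41.3-fold higher in XY KO than in XY controls (log2 5.37 ± 0.43, edgeR FDR = 6.57e-07) and 64.6-fold higher in XX than in XY controls (log2 6.01 ± 0.43, edgeR FDR = 1.54e-07). In XX embryos KO and control overlapped (log2 -0.24 ± 0.29). Pre-granulosa genes were high in the same libraries, with all 8 of a list called higher in XY KO than in XY controls (20.6% of all tested genes were called).

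Pax8 and Gata3, too, were at their lowest in XY controls. Pax8 was at 5.79, 3.9 and 4.52 CPM in XY controls, at 15.7, 20.2 and 21.3 CPM in XY KO, at 16, 14 and 16.4 CPM in XX controls and at 22, 25 and 36.9 CPM in XX KO. Its level was 4.02-fold higher in XY KO than in XY controls (log2 2.01 ± 0.22, edgeR FDR = 1.25e-05) and 3.25-fold higher in XX than in XY controls (log2 1.70 ± 0.22, edgeR FDR = 4.85e-05). Pax8 was also 1.81-fold higher in XX KO than in XX controls (log2 0.85 ± 0.20, edgeR FDR = 0.0309). That call was lost without XX control replicate 1 or 2 (edgeR FDR = 0.0945 and 0.144), without XX KO replicate 3 (log2 0.61, edgeR FDR = 0.154) and with the XX libraries alone (edgeR FDR = 0.0595).

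Gata3 was at 1.22, 1.65 and 1.74 CPM in XY controls, at 3.8, 3.78 and 4.86 CPM in XY KO, at 3.25, 5.7 and 5.5 CPM in XX controls and at 3.55, 5.52 and 3.99 CPM in XX KO. It was 2.74-fold higher in XY KO than in XY controls (log2 1.46 ± 0.29, edgeR FDR = 0.0021) and 3.16-fold higher in XX than in XY controls (log2 1.66 ± 0.29, edgeR FDR = 0.000608). XX KO and XX control libraries overlapped (log2 -0.14 ± 0.26). Gata3 shares 155 exon bases with an antisense gene, Gm13256, and 77 with 9230102O04Rik on its own strand.

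Wnt9b and Pax2 were low in control gonads and uneven in KO gonads. Wnt9b had 1, 2 and 0 counts in XX controls and 10, 9 and 2 counts in XY controls, and 10, 317 and 62 counts in XX KO and 4, 38 and 306 counts in XY KO. In CPM it was no more than 0.435 in any control, 0.329, 7.18 and 2.25 in XX KO and 0.234, 2.56 and 8.35 in XY KO, so XX KO replicate 1 and XY KO replicate 1 were at the level of XY controls. Pooled over libraries, the ratio of XX KO to XX controls was 70.1 (389 against 3 counts, exact 95% interval 23.8 to 341, which covers counting error only). The fitted differences were called in XX embryos (log2 5.80 ± 1.51, edgeR FDR = 0.0421) and in XY embryos (log2 3.42 ± 1.12, edgeR FDR = 0.0453). They did not hold up. The call was lost in 10 of 18 alternative fits in XX and in 12 of 18 in XY embryos, and without XY KO replicate 3 the XY difference was 1.92 (edgeR FDR = 0.284). Without XX KO replicate 2 the XX difference was 4.42 (edgeR FDR = 0.0782).

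Pax2 was at 1, 0.867 and 0.869 CPM in XY controls, at 0.994, 2.7 and 6.42 CPM in XY KO, at 1.44, 2.12 and 2.31 CPM in XX controls and at 2.3, 7.47 and 7.15 CPM in XX KO. Replicate 1 of each KO genotype lay within the range of the controls of its sex. Pax2 was called in XY embryos (log2 1.92 ± 0.59, edgeR FDR = 0.0312) and not in XX embryos (log2 1.53 ± 0.54, edgeR FDR = 0.108). The XY call was lost when any 1 XY control was left out (edgeR FDR = 0.0796 to 0.101) and without XY KO replicate 3 (log2 0.98, edgeR FDR = 0.245). In XX embryos Pax2 passed without XX KO replicate 1 (log2 1.90, edgeR FDR = 0.0445) or XY KO replicate 1 (edgeR FDR = 0.0492), and by DESeq2's Wald test (adjusted p = 0.0486). All XX controls were above all XY controls for Pax2 (log2 1.09 ± 0.61, edgeR FDR = 0.237), and this difference passed with the control libraries alone (edgeR FDR = 0.0335).

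Some epithelial genes of duct and tubule were near 0 in control gonads and measured in KO gonads, while others were not. Cdh16 was at 0.464, 0.656 and 1.31 CPM in XX controls and at 0.435, 0.13 and 0 CPM in XY controls, and at 14.8, 59.7 and 76.3 CPM in XX KO and 4.5, 24.3 and 49.1 CPM in XY KO. Every KO library was therefore above every control library, and replicate 1 had the least Cdh16 in each KO genotype. Cdh16 was called in XX (log2 5.99, edgeR FDR = 0.00913) and in XY embryos (log2 6.85, edgeR FDR = 0.000865). Slc34a1, of the proximal tubule, had no counts in any of the 6 control libraries and was at 0.117 to 5.23 CPM in KO libraries. Hnf4a reached 12 CPM in XX KO and 2.81 CPM in XY KO, against at most 0.261 CPM in controls.

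Over the lists, 5 of 9 tested duct genes were called higher and none lower in XY KO, and 3 higher and none lower in XX KO. Of 10 tested tubule genes, 5 were called higher and 1 lower in XY KO, and 5 higher and none lower in XX KO. The shares of all tested genes called were 20.6% and 5.26%. Between controls, 3 of the 9 tested duct genes were also called higher in XX than in XY and none lower (23.8% of all tested genes called). The summed tubule list ranked as Cdh16 did within XX KO, at 53.1, 116 and 154 CPM in replicates 1, 2 and 3. In XY embryos it did not follow Cdh16, as it was higher in controls than in KO. It was 51.4 to 76.4 CPM in XX controls, 53.1 to 154 CPM in XX KO, 132 to 144 CPM in XY controls and 78.5 to 100.2 CPM in XY KO. Spp1, the tubule gene called lower in XY KO (log2 -2.97), gave on average 97.6 CPM of the XY control sum and 12.3 CPM of the XY KO sum. Cubn and Lrp2, endocytic receptor genes of the tubule, were at genotype means of 2.59 to 15.2 CPM in control gonads. The summed duct list, most of which is Emx2 of the gonad's own cells, was 363 to 410 CPM in XX controls, 126 to 154 CPM in XY controls, 371 to 481 CPM in XX KO and 345 to 403 CPM in XY KO. With only replicate 1 of each KO genotype kept, the libraries with the least Cdh16, 5 members remained called in XY embryos, Pax8, Lhx1, Gata3, Gdnf and Calb1 (14.2% of all tested genes), and none in XX embryos (0.318%). In that fit the difference of Pax2 in XY embryos was 0.15 (edgeR FDR = 0.902) and that of Pax8 in XX embryos 0.51 (edgeR FDR = 0.387), and Wnt9b no longer passed the filter. The single KO libraries were there assumed to vary like the other groups. The part of attached mesonephric tissue in the values of Wnt9b, Pax2, Pax8 and Gfra1 was not tested.

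**Figure D5:**
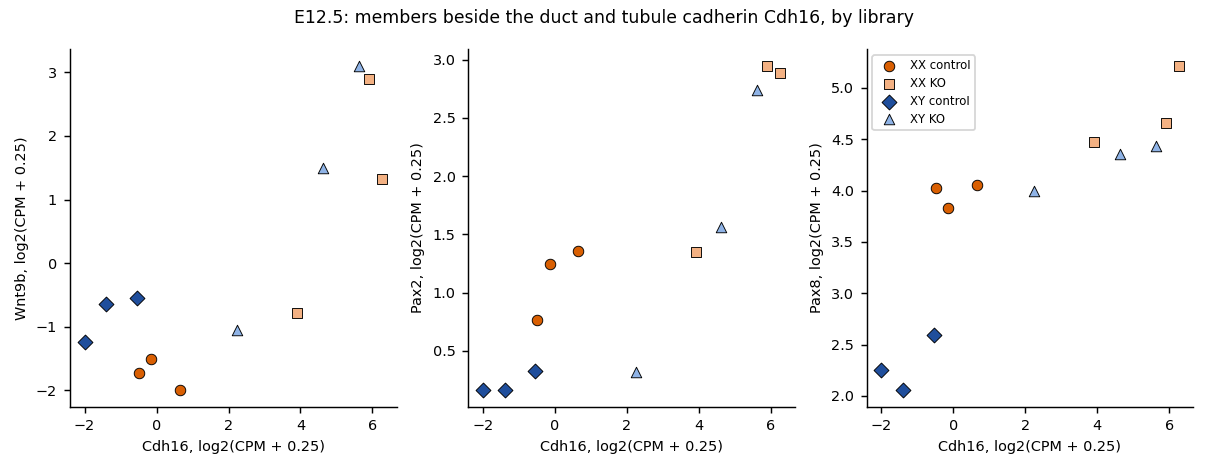
Log2(CPM + 0.25) of Wnt9b, Pax2 and Pax8 against Cdh16 in the 12 gonad libraries of E12.5, coloured by genotype. All KO libraries lie to the right of all controls, and for Wnt9b and Pax2 replicate 1 of each KO genotype, with the least Cdh16 (4.5 and 14.8 CPM), lies within the range of all controls.

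The KO effect differed between the sexes for 4 of 9 members at E12.5 (12.9% of all tested genes). The effect in XY minus that in XX embryos was 5.61 ± 0.53 on the log2 scale for Calb1, -4.83 ± 0.49 for Gdnf, 1.59 ± 0.39 for Gata3 and 1.15 ± 0.30 for Pax8. For Gfra1, with opposite signs in the 2 sexes, the difference of -2.40 ± 0.76 did not pass (edgeR FDR = 0.0528), and DESeq2's Wald test called it (adjusted p = 0.0122). Over the alternative fits this difference ranged from -2.85 to -0.44. The XX effect of Gfra1 kept its sign in 18 of 19 of them.

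The RET pathway at E12.5 was described by the same lists. Of 12 tested outputs, 4 were called lower and 1 higher in XY KO (20.6% of all tested genes called), and 2 lower and 1 higher in XX KO (5.26%). Etv5 was at 150, 175 and 145 CPM in XY controls and at 54.4, 69.8 and 84.7 CPM in XY KO (log2 -1.17, edgeR FDR = 0.00178), and at 116, 112 and 66.4 CPM in XX controls and 49.8, 62.4 and 37.3 CPM in XX KO (log2 -0.97, edgeR FDR = 0.028). Etv4 was called lower in both sexes as well, Dusp6 (log2 -1.12) and Spry1 (log2 -0.76) were called lower in XY KO, and Met was the gene called higher in both. Gfra2, the co-receptor for neurturin, was called higher in XX KO (log2 0.85, edgeR FDR = 0.00923) and Gdf15 lower in XY KO (log2 -1.99, edgeR FDR = 0.0136), out of 7 tested genes of the family. Of 18 tested regulators of Gdnf and of budding, 6 were called higher and 2 lower in XY KO (20.6% of all tested genes called), and 4 higher and 1 lower in XX KO (5.26%). Those higher in XY KO included Npnt (log2 1.94), Emx2 (1.55), Itga8 (1.43), Sall1 (1.10) and Osr1 (1.07). In XX KO they included Osr1 (log2 1.43), Slit3 (1.15) and Sall1 (1.09), and Six4 was the lower one (-1.11). The part of attached mesonephric tissue in the values of these list genes, Met among them, was not tested.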

How the data were processed

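Bulk RNA-seq libraries of 4 genotypes at 2 stages were analysed, 3 per group. The authors mapped HiSeq read pairs to mm10 with subread and counted them with featureCounts; versions, annotation, strand setting and multimapping are not given in the sources used here. The deposited values are raw counts per gene. Columns were matched to samples by the labels. A further 12 columns, in the deposited tables on Foxl2, were left out because no label ties their names to a tissue.

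The members and gene lists were chosen with earlier results of these data known. Each stage was fitted apart with edgeR 4.0.16 (TMM, robust quasi-likelihood test, 1 mean per genotype, R 4.3.3) on genes with at least 1 CPM in at least 2 of 12 libraries, with Benjamini-Hochberg adjustment over all tested genes and a threshold of 0.05. CPM and RPKM were computed from the counts and GENCODE vM21 exon lengths. All members were named with every library. Only list genes called in a KO comparison could be named, not all of them were; the 3 genes most like each member at E11.5 were named by Pearson r. Six2, Dbh and the alternative without Cdh16-rich libraries were chosen after values were seen. Lists exclude the members. The test was run on simulated data first. Alternatives were other scalings, no filter, DESeq2 1.42.0, only the libraries compared, the replicate block and each library left out. Replicates are pools with no litter or batch given, so p-values measure the spread between these pools. All replicate pairs differed by more than sampling noise. Some list genes are not reported here by name.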

Additional observations from a re-analysis of the deposited data

Results flagged for a closer look

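Loss of the cluster had different effects in XY and XX gonads at E12.5 for 4 members, by the interaction term of the edgeR fit. The effect in XY minus that in XX embryos was 5.61 on the log2 scale for Calb1 (edgeR FDR = 7.83e-06), since it rose from under 1 CPM in XY gonads and overlapped in XX gonads. It was -4.83 for Gdnf (edgeR FDR = 1.39e-05), whose XX libraries were all under 1 CPM. It was 1.59 for Gata3 (edgeR FDR = 0.014) and 1.15 for Pax8 (edgeR FDR = 0.0187), and Pax8 rose in both sexes. The interaction of Pax8 was lost without XY control replicate 2 (edgeR FDR = 0.0567) or XY KO replicate 2 (0.0516). With only replicate 1 of each KO genotype kept, Gdnf and Calb1 still passed, while Pax8 (1.24, edgeR FDR = 0.0526) and Gata3 (1.78, edgeR FDR = 0.0677) did not. All 4 effects in XY embryos rest on the same 3 XY control libraries, in which each gene stood outside the range of the other 3 genotypes.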

How the results depend on the processing

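At E12.5 the 7 members called between control sexes and the 7 called in XY KO stayed within 5 to 8 in all alternatives run. In XX KO at E12.5, 2 members were called, against 1 with no filter on low counts, 1 with only the libraries compared, 0 without the Cdh16-rich KO libraries, and 0 to 4 when 1 library was left out. Between XX KO and XY KO at E12.5, 1 was called, against 0 with only the libraries compared and 0 to 2 with 1 library left out. The interaction at E12.5 had 4, and 2 without the Cdh16-rich libraries. At E11.5, XY KO had 1 member called, against 0 with only the libraries compared and 0 to 2 with 1 library left out. XX KO had 0, against 2 by DESeq2, 3 with only the libraries compared and 0 to 2 with 1 library left out. The control sexes had 0, against 1 by DESeq2 and 0 to 5 with 1 library left out. With the replicate number as a block, Wnt9b in XY KO at E12.5 lost its call (2.83, edgeR FDR = 0.0707, 6 members called in place of 7), and no other call of a member changed. Same-numbered libraries share only a number: their deviations from the group means correlated over 0.1 in 7 of 18 pairs at E11.5 and 5 of 18 at E12.5. With library size alone as the scaling, 176 of the 421 genes called in XX KO at E11.5 were higher, against 258 of 465 with TMM. With 8mer matches only, 1 of 9 members held a seed match (Wnt9b), against 11.9% of genes. No called member changed sign in the alternatives run. Depth limits Wnt9b in XX controls of E12.5, at 3 counts in all.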
